A study of Mus musculus with 44 samples.

Results

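The genes described here are 9 amino acid transporter subunits of the kidney proximal tubule: Slc3a1, Slc7a9, Slc6a19, Slc6a18, Slc6a20b, Slc1a1, Slc3a2, Slc7a7 and Slc7a8. They were taken by name from a table of 24733 genes with any value above 0, and all 9 were found. RNA abundance was measured in polyadenylated RNA of whole mouse kidney, in 24 libraries from animals of the 129SV strain aged 8 to 12 weeks and fed only at night. The libraries came from wild-type mice (WT) and from mice without Bmal1 (KO), the activator of the circadian clock, whose gene is listed as Arntl. Each genotype was sampled at zeitgeber time (ZT) 0, 4, 8, 12, 16 and 20 h, with 2 libraries, A and B, per genotype and time. Sex, pooling of animals and the kind of Bmal1 deletion are not given in the sources used here. The labels do not say that libraries A and B came from separate animals, so p-values measure the spread between libraries, which may be technical.

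The proximal tubule takes back nearly all filtered amino acids. Uptake from the urine passes through apical carriers: the rBAT-b0,+AT heterodimer for cystine and dibasic amino acids (Slc3a1 and Slc7a9), the sodium-coupled neutral carriers (Slc6a19, Slc6a18 and the Slc6a20 genes) and the acidic carrier EAAT3 (Slc1a1). Release to the blood passes through basolateral exchangers, in which the heavy chain 4F2hc (Slc3a2) is bound to a light chain, y+LAT1 (Slc7a7) or LAT2 (Slc7a8). Loss of Slc3a1 or Slc7a9 gives cystinuria, loss of SLC6A19 gives Hartnup disorder, and loss of SLC7A7 gives lysinuric protein intolerance.

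In the GRCm38 annotation used, the heavy chains are Slc3a1 (ENSMUSG00000024131) at chr17:85028376-85064236 on the plus strand and Slc3a2 (ENSMUSG00000010095) at chr19:8706882-8723369 on the minus strand. The light chains are Slc7a9 (ENSMUSG00000030492) at chr7:35448796-35466036 on the plus strand, Slc7a7 (ENSMUSG00000000958) at chr14:54369442-54417780 on the minus strand and Slc7a8 (ENSMUSG00000022180) at chr14:54722209-54781946 on the minus strand. Of the sodium-coupled carriers, Slc6a18 (ENSMUSG00000021612) is at chr13:73661752-73678023 on the minus strand, and Slc6a19 (ENSMUSG00000021565) is next to it at chr13:73679745-73704865 on the minus strand. Further carriers are Slc6a20b (ENSMUSG00000025243) at chr9:123590800-123632565 on the minus strand and Slc1a1 (ENSMUSG00000024935) at chr19:28835049-28913960 on the plus strand. Values are sums over all annotated transcripts of a gene, and the coding transcripts held at least 54.2% of TPM for Slc7a9, 50.3% for Slc6a19 and 37.3% for Slc6a20b in every library, and 93.8% or more for the other 6. The rest came from transcripts annotated as retained introns, targets of nonsense-mediated decay or processed transcripts.

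Values are TPM, transcript abundances scaled for transcript length and to the same total in each library, so the sequencing depth is unknown. A difference is KO minus WT on the log2(TPM + 0.1) scale, given with its standard error (SE). It was called where limma's p-value, adjusted by the Benjamini-Hochberg method over all 12874 genes that averaged 1 TPM or more, was under 0.05. All 9 transporter genes passed that filter. In whole tissue, fewer cells of a type and less RNA per cell cannot be told apart.

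Arntl itself was listed at 4.19 to 6.28 TPM in all 12 KO libraries, without the WT swing from 0.295 to 12.9 TPM, so at ZT4 its level does not separate the genotypes. The library labelled KO ZT4 A went against its label: Cry1 was 1.03 TPM there and 11.5 to 17.8 TPM in the other KO libraries, and Nr1d1 was 23.8 TPM there and at most 3.46 TPM in the others. The library labelled KO ZT12 A held 0.099 TPM of Y-linked Ddx3y, against 11.7 to 17.5 TPM in every other library. Of 4 male-high kidney genes, 4 fell in KO (median log2 difference -3.55), and of 3 female-high genes, 3 rose (median 3.99). The mitochondrial share of TPM was 40.5% ± 1.31 (SD, n = 12) for WT libraries and 37.6% ± 1.97 for KO libraries. The median log2 difference over all genes tested was 0.15 as deposited and near 0 (-0.0019) after median-of-ratios scaling. The part of these features in the results below was not tested.

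Slc3a1 was the most abundant of the 9 in WT kidney, at 226.7 TPM ± 13.5 (SD, n = 12), and its lowest WT library, at 203.5 TPM, lay above the highest WT library of Slc6a18, at 119.0 TPM. Slc6a18 followed with 107.0 TPM ± 7.75. Slc6a19 (83.5 TPM ± 37.3), Slc6a20b (80.4 TPM ± 4.45), Slc7a9 (78.9 TPM ± 16.2) and Slc1a1 (75.6 TPM ± 6.3) came next and did not differ from each other beyond their spread. Slc7a7 (62.8 TPM ± 5.67) and Slc3a2 (56.0 TPM ± 8.55) overlapped in range, and Slc7a8 was the lowest at 36.9 TPM ± 8.36. In KO kidney Slc3a2 stood at 86.4 TPM ± 12.4, above Slc6a20b (73.3 TPM ± 8.94) in the order of means though not beyond their spread, and Slc7a8 stood at 67.1 TPM ± 14.6.

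**Figure D1:**
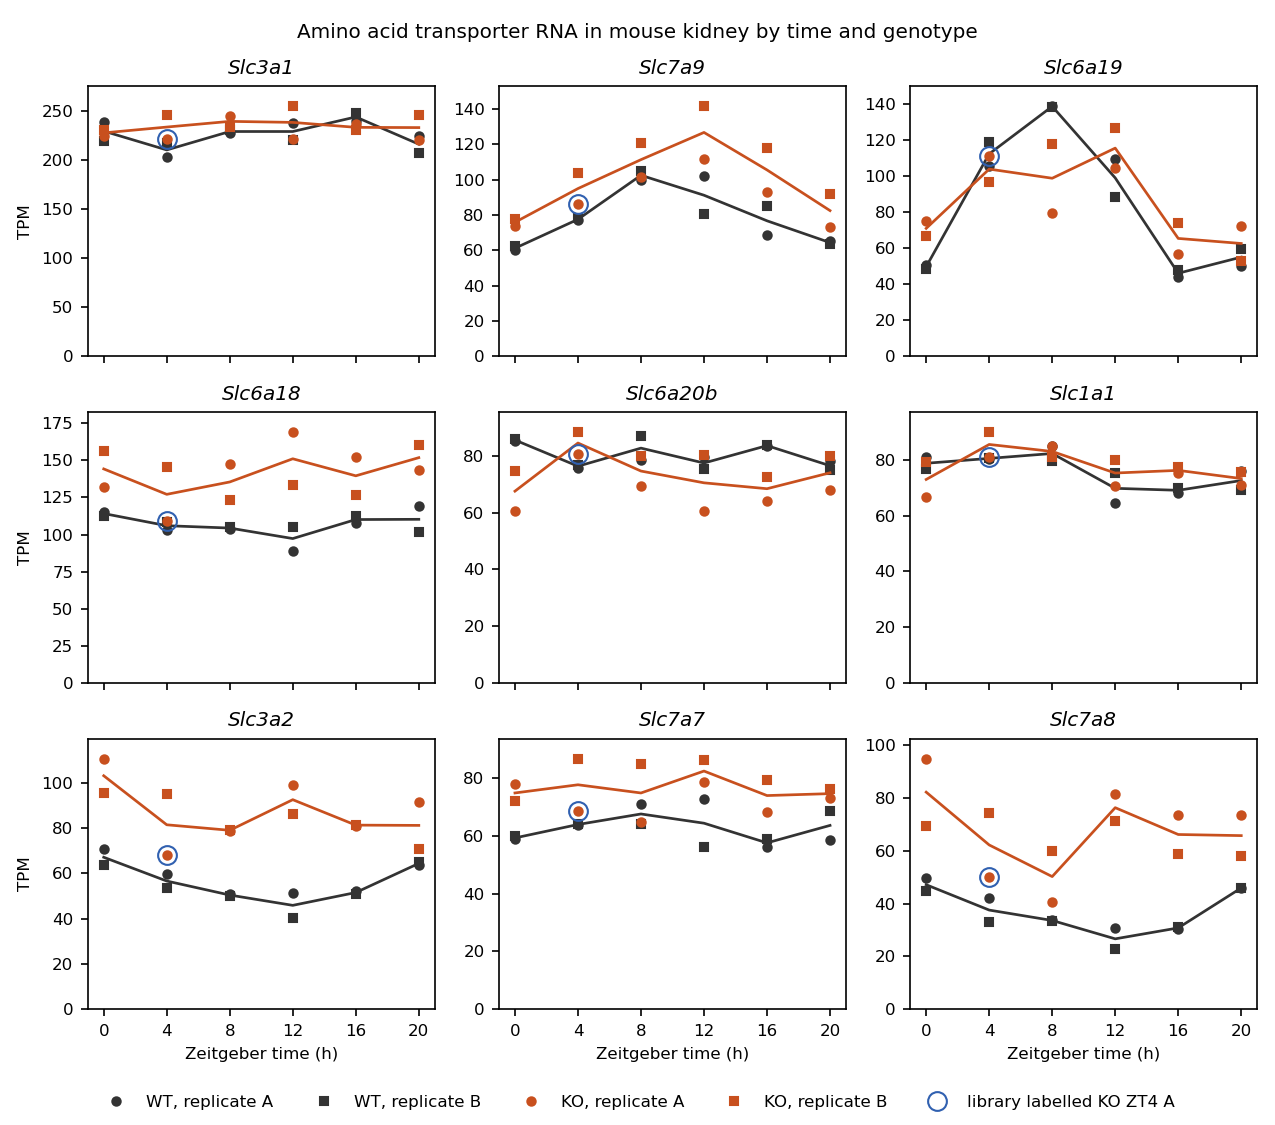
TPM of each gene (vertical axis, from 0) by zeitgeber time (horizontal axis, h). Points are single libraries, lines join the mean of the 2 libraries per genotype and time, and a blue ring marks the library labelled KO ZT4 A. Both KO libraries of Slc3a2, Slc7a8 and Slc6a18 lie above both WT libraries at every time. The KO means of Slc7a9 and Slc7a7 also lie higher at every time. Slc6a19, Slc7a9, Slc3a2 and Slc7a8 swing over the day in WT.

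Of the 9 genes, 5 were higher in KO (Slc7a8, Slc3a2, Slc6a18, Slc7a9 and Slc7a7), 1 was lower (Slc6a20b) and 3 were not called (Slc3a1, Slc6a19 and Slc1a1). Over all genes tested, 60.9% were called, 50.9% higher and 10% lower, so 5 of 9 higher is close to the background. The median difference of the 9 was 0.28, beside 0.15 over all genes. After median-of-ratios scaling the same 5 genes were higher and 2 were lower, Slc6a20b and Slc1a1, beside a background of 44.1%, with 21.5% higher and 22.6% lower. Without KO ZT4 A, 6 were called, against 62.9% of all genes.

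The largest differences of the 9 were those of Slc7a8 and Slc3a2, partners in a basolateral exchanger. Slc7a8, the LAT2 light chain that exchanges neutral amino acids, ranged in WT from 22.6 TPM through a median of 33.6 to 49.5 TPM, and in KO from 40.6 through 70.4 to 94.9 TPM. Of the 12 KO libraries, 11 lay above every WT library, and the exception was KO ZT8 A. Its difference was 0.86 (SE 0.113, adjusted p = 5.02e-06), a 1.82-fold higher level in KO, and 0.71 (adjusted p = 1.45e-05) after median-of-ratios scaling. Slc3a2, the heavy chain without which the light chains do not reach the membrane, ranged from 40.3 through 52.7 to 70.7 TPM in WT and from 67.9 through 83.8 to 110.6 TPM in KO. In 10 of 12 KO libraries it lay above every WT library, the exceptions being KO ZT4 A and KO ZT20 B. The difference was 0.63 (SE 0.072, adjusted p = 1.11e-06), or 1.55-fold, and 0.48 (adjusted p = 4.99e-06) after the other scaling.

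Slc7a7, the y+LAT1 light chain that exports dibasic amino acids, moved less. Its WT libraries ran from 56.0 through 61.9 to 72.9 TPM and its KO libraries from 64.9 through 77.0 to 86.8 TPM, so the genotypes overlapped and 8 of 12 KO libraries exceeded every WT library. The difference was 0.28 (SE 0.055, adjusted p = 0.000213), a 1.22-fold higher level, and 0.13 (adjusted p = 0.0423) after median-of-ratios scaling. Slc7a7 and Slc7a8 are each listed with a single transcript, and a pair of coding transcripts holds all of Slc3a2.

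At single times, where 2 KO libraries face 2 WT libraries, Slc7a8 was called at ZT0, ZT12 and ZT16, and Slc3a2 at ZT0, ZT8, ZT12 and ZT16. ZT12 held their largest differences. Slc7a8 measured 30.7 and 22.6 TPM in the WT libraries of that time and 81.3 and 71.3 TPM in the KO libraries, a difference of 1.53 (SE 0.226, adjusted p = 0.000359). Slc3a2 measured 51.4 and 40.3 TPM against 98.8 and 86.2 TPM, a difference of 1.02 (SE 0.153, adjusted p = 0.000368). Over the 9 genes and 6 times, 9 of 54 differences were called, the other 2 being Slc6a18 and Slc7a9 at ZT12. After median-of-ratios scaling the Slc7a9 difference at ZT12 went from 0.47 to 0.23 (adjusted p = 0.336) and that of Slc7a8 at ZT0 from 0.79 to 0.62 (adjusted p = 0.0727), and neither was called. Both calls were also lost with no filter (adjusted p of 0.0577 and 0.0612), and Slc7a9 at ZT12 on rescaling without mitochondrial genes (0.0742). With single libraries of those times left out, the calls of Slc3a2 at ZT0, ZT8 and ZT16, Slc7a8 at ZT0, and Slc6a18 and Slc7a9 at ZT12 were lost, with an adjusted p of up to 0.254 (Slc7a9 without WT ZT12 B). The background at ZT0, 4, 8, 12, 16 and 20 was 13.4%, 0%, 14.6%, 38.2%, 21.5% and 3.72% of genes. At ZT4 limma called none of the 12874 genes, while 1637 had an unadjusted p under 0.05, and this is the time of the library that went against its label. Without KO ZT4 A and KO ZT12 A, more differences at single times were called, both among the 9 genes and over all genes. The rise alone therefore does not set these transporters apart. Only a single KO library was then left at ZT4 and at ZT12.

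Slc3a2 and Slc7a8 ran closely together over the 12 group means of genotype and time, with a Pearson r of 0.98. These means share the genotype difference and the scaling of each library, so the value is a description. The bases just upstream of their RefSeq starts in GRCm38 are shown because these genes moved most and moved together. Both genes lie on the minus strand, and each sequence is written 5′ to 3′ on that strand. The Slc3a2 window is chr19:8713898-8714147, next to the start of the transcript that held 95.5% ± 1.02 (SD, n = 12) of its WT TPM. The Slc7a8 window is chr14:54781931-54782136, with 44 bases nearest the RefSeq start left out because they lie inside the annotated transcript. Capitals mark the only match to the motifs searched, CACGTT.
Slc3a2: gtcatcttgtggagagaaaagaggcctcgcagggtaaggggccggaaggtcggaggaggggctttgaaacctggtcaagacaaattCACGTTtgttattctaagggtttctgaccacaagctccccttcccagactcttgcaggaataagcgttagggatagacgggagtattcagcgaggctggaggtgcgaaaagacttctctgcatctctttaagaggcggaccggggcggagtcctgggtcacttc
Slc7a8: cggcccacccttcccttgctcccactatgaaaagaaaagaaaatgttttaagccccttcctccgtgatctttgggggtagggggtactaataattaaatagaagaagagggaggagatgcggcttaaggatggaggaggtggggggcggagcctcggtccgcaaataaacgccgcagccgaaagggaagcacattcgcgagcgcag

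The motifs were searched on both strands in the 250 bases before each RefSeq start, in 13 windows, of which Slc7a7 had 5, Slc7a9 had 2 and each of the other 6 genes had 1. Windows of a gene can overlap. The canonical E-box CACGTG, to which BMAL1-CLOCK binds, was in no window of the 8 genes with a promoter entry (Slc6a18 had none), and in 6.02% of 32851 promoters. The E-box variant CACGTT was in 1 of 13 windows, that of Slc3a2, and in 3.85% of promoters. AGGTCA, the element bound by ROR and REV-ERB receptors, was in 3 of 13 windows, both of Slc7a9 and 1 of Slc7a7, and in 14.0% of promoters. The Slc7a9 windows overlap, and their match is the same site. TGATGNAA, the composite site of ATF4, was in 2 of 13 windows, both of Slc7a7, and in 3.45%, and the D-box TTATGNAA was in none and in 3.07%. The Slc7a7 window next to the start of its only quantified transcript held no match to any of these motifs. The Slc6a19 window lay next to the start of a processed transcript that held 26.0% of its WT TPM. The coding transcript of Slc6a19, with 59.5%, starts at chr13:73700780, and the bases before that start were not searched. A match is a string of letters and not a binding site, and no match says only that the letters are not in this window.

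**Figure D2:**
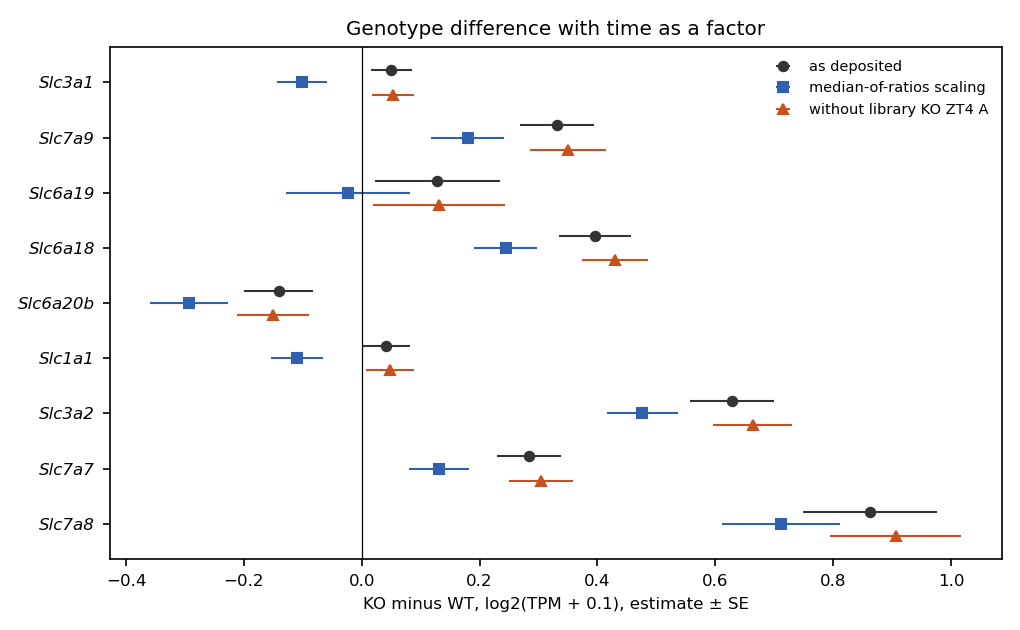
KO minus WT difference in log2(TPM + 0.1) (horizontal axis) for the 9 genes, with time as a factor; points are limma estimates and bars are SE. Circles use TPM as deposited, squares median-of-ratios scaling and triangles all libraries but KO ZT4 A. Slc3a1, Slc6a19 and Slc1a1 lie above 0 as deposited and below 0 after scaling.

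Among the apical carriers, Slc6a18, a sodium-coupled carrier of glycine and other small neutral amino acids, differed most. It measured 89.1 through 106.7 to 119.0 TPM in WT and 108.9 through 144.3 to 168.9 TPM in KO. All KO libraries but KO ZT4 A (108.9 TPM) lay above every WT library. Without that library, 10.1% of all genes had 11 KO libraries clear of the 12 WT libraries. The difference was 0.40 (SE 0.061, adjusted p = 2.29e-05), or 1.32-fold, and 0.24 (adjusted p = 0.001) after median-of-ratios scaling. Like Slc3a2 and Slc7a8, Slc6a18 had both KO libraries above both WT libraries at all 6 times, a pattern found in 9.6% of genes. Among the group means it ran with Slc3a2 (r = 0.92) and Slc7a8 (r = 0.92), more closely than with Slc6a19 (r = -0.085), its neighbour on chromosome 13.

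The partners of the cystine carrier parted. Slc7a9, the b0,+AT light chain that transports cystine and dibasic amino acids, measured 60.2 through 77.6 to 105.2 TPM in WT and 73.0 through 97.3 to 141.7 TPM in KO. The ranges overlapped, and 4 of 12 KO libraries exceeded every WT library. Its difference was 0.33 (SE 0.063, adjusted p = 0.000195), or 1.26-fold, and 0.18 (adjusted p = 0.0231) after median-of-ratios scaling. Slc3a1, the rBAT heavy chain that brings Slc7a9 to the brush border, measured 203.5 through 226.7 to 248.5 TPM in WT and 220.5 through 232.4 to 255.4 TPM in KO. Its difference of 0.0503 (SE 0.035, adjusted p = 0.218) was not called, and it was -0.10 (adjusted p = 0.0569) after scaling.

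Slc6a19, the B0AT1 carrier of neutral amino acids, measured 44.3 through 74.1 to 138.9 TPM in WT and 52.7 through 77.3 to 126.5 TPM in KO. Averaged over the day its difference was 0.13 (SE 0.106, adjusted p = 0.299), not called, and -0.023 after scaling. Slc1a1, the acidic carrier, measured 64.5 through 76.4 to 85.0 TPM in WT and 66.7 through 78.5 to 90.0 TPM in KO, with an uncalled difference of 0.042 (SE 0.04, adjusted p = 0.376). After median-of-ratios scaling Slc1a1 was lower in KO by -0.11 (adjusted p = 0.0479).

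Slc6a20b, from the Slc6a20 genes of the sodium-coupled carrier family, was the only one of the 9 called lower. It measured 74.9 through 79.0 to 87.1 TPM in WT and 60.4 through 73.7 to 88.3 TPM in KO, and 7 of 12 KO libraries lay below every WT library. The difference was -0.14 (SE 0.059, adjusted p = 0.0433), and -0.29 (adjusted p = 0.00131) after scaling. This call was lost on leaving out any of 14 of the 24 libraries (adjusted p up to 0.0861, without KO ZT0 A), and without both KO ZT4 A and KO ZT12 A it was 0.077. The coding transcript held as little as 37.3% of its TPM, and with coding transcripts alone the adjusted p was 0.0992. Its near copy Slc6a20a measured 4.96 to 10.3 TPM in WT and 6.53 to 10.6 TPM in KO, and reads may have been split between the copies.

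Over the day, 4 of the 9 genes were rhythmic in WT, against a background of 13.7% of genes. Rhythm was tested as a 24-hour cosine and sine, and its size is the fitted peak minus the fitted trough in log2 units. Slc6a19 had the largest swing. Its WT libraries measured 50.8 and 48.7 TPM at ZT0, 105.6 and 119.1 at ZT4, 138.9 and 138.5 at ZT8, 109.7 and 88.3 at ZT12, 44.3 and 47.9 at ZT16, and 50.3 and 59.8 at ZT20. The level was thus high from ZT4 to ZT12 and low from ZT16 to ZT0, and the libraries of ZT8 did not overlap those of any other time. The swing was 1.66 (SE 0.209, adjusted p = 0.00012), or 3.15-fold, with a fitted peak at 7.6 h.

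Slc7a9 followed with a WT swing of 0.71 (SE 0.118, adjusted p = 0.00133) and a peak at 9.73 h. Its WT mean was 61.2 TPM at ZT0 and 102.5 TPM at ZT8. The heavy and light chains Slc3a2 and Slc7a8 peaked on the other side of the day. Slc3a2 had a swing of 0.55 (SE 0.136, adjusted p = 0.0252) with a peak at 23.1 h, and a WT mean of 67.1 TPM at ZT0 and 45.8 TPM at ZT12. Slc7a8 had a swing of 0.81 (SE 0.207, adjusted p = 0.0321) with a peak at 23.5 h, and a WT mean of 47.1 TPM at ZT0 and 26.6 TPM at ZT12. Both calls rest on few libraries: without WT ZT12 B the adjusted p was 0.0975 for Slc3a2 and 0.118 for Slc7a8, and without WT ZT0 A it was 0.0792 and 0.0851. Leaving out KO ZT4 A kept all 4 calls, against 16.6% of genes. Leaving out WT ZT0 B, WT ZT16 A, WT ZT20 A or WT ZT20 B also ended the Slc7a8 call, with adjusted p of 0.0598, 0.0509, 0.0554 and 0.0579. Without the mitochondrial transcripts in the total, the adjusted p was 0.0584 for Slc3a2 and 0.0682 for Slc7a8. With time as a 6-level factor it was 0.142 for Slc3a2 and 0.128 for Slc7a8. The Slc7a8 call was also lost with no filter (0.056).

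The other 5 genes were not called rhythmic in WT. Slc1a1 came nearest, with a swing of 0.27 (SE 0.078, adjusted p = 0.0613) and a peak at 4.03 h. Slc3a1, the partner of the rhythmic Slc7a9, had a fitted swing of 0.12 (adjusted p = 0.415), and Slc6a20b one of 0.019 (adjusted p = 0.991). The values for Slc7a7 and Slc6a18 were 0.15 (adjusted p = 0.605) and 0.18 (adjusted p = 0.518).

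**Figure D3:**
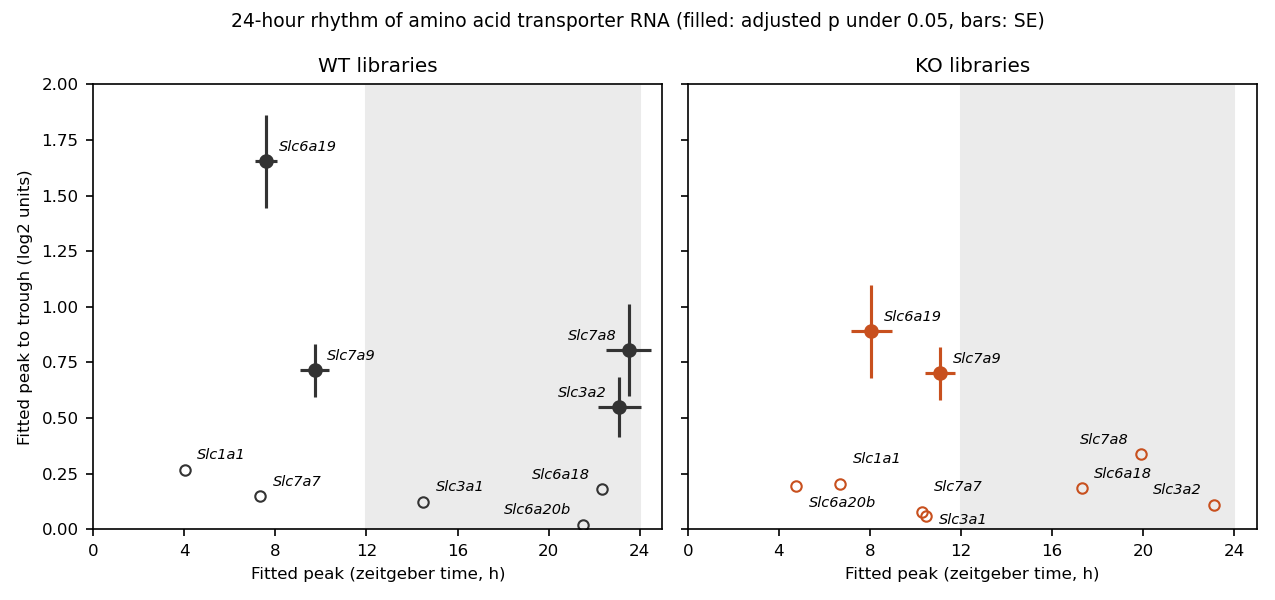
Fitted peak time (horizontal axis, h) and peak-to-trough swing (vertical axis, log2 units) of the 24-hour rhythm in WT (left) and KO (right). Filled points passed the test and carry SE bars, open points did not, and grey marks ZT12 to ZT24. Slc6a19 and Slc7a9 pass in both genotypes, and Slc3a2 and Slc7a8 only in WT, but no difference in rhythm between genotypes was called.

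In KO, 2 of the 9 were rhythmic, Slc7a9 and Slc6a19, against a background of 3.64%. Slc7a9 kept a swing of 0.70 (SE 0.118, adjusted p = 0.00753) with a peak at 11.1 h. Its KO libraries measured 74.1 and 77.7 TPM at ZT0, 101.8 and 120.9 TPM at ZT8, and 111.8 and 141.7 TPM at ZT12. This call was kept with each library left out, and lost with each genotype fitted alone (adjusted p = 0.103) and with time as a 6-level factor (0.143), under which the WT call of Slc7a9 was also lost (0.0555). Slc6a19 had a swing of 0.89 (SE 0.209, adjusted p = 0.0461) with a peak at 8.05 h. The KO libraries of Slc6a19 measured 75.0 and 67.0 TPM at ZT0, 79.6 and 118.1 TPM at ZT8, 104.6 and 126.5 TPM at ZT12, and 72.5 and 52.7 TPM at ZT20. This call was lost on leaving out any of 16 libraries, with an adjusted p of up to 0.114 (without KO ZT20 B). KO ZT4 A was among them (adjusted p = 0.0613, with 1 of the 9 then called against 3.75% of genes). The KO call of Slc6a19 was also lost under 9 of 13 other alternatives. The adjusted p was 0.051 after median-of-ratios scaling, 0.0876 with time as a 6-level factor and 0.1675 with each genotype fitted alone. In KO, Slc3a2 (0.11, adjusted p = 0.864) and Slc7a8 (0.34, adjusted p = 0.557) were not called.

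The difference in rhythm between genotypes was called for 0 of the 9 by limma, against a background of 0.629%, and none had an unadjusted p under 0.05. Without KO ZT4 A it was again 0, against 0.87% of genes. The largest was that of Slc6a19, where the KO minus WT curve had a swing of 0.78 (SE 0.296, unadjusted p = 0.0505, adjusted p = 0.368). Those of Slc7a8 (0.67, SE 0.293, adjusted p = 0.47) and Slc3a2 (0.44, SE 0.192, adjusted p = 0.467) followed. So the loss of a called rhythm of Slc3a2 and Slc7a8 in KO was not shown to be a difference from WT.

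Because carriers work as assemblies, the TPM ratios of partners were compared within each time. The test was an exact two-sided permutation test over 46656 arrangements, with adjustment over 4 ratios. The ratios use the same values as the differences above, so they are no separate support for them. Ratios of other gene pairs were not tested. The ratio of Slc7a9 to Slc3a1 was 0.349 ± 0.068 (SD, n = 12) in WT and 0.423 ± 0.08 in KO. It was higher in KO at 6 of 6 times, by 0.28 in log2 (exact p = 0.0003, adjusted p = 0.000772). At ZT12 the ratios were 0.429 and 0.364 in WT and 0.504 and 0.555 in KO. Slc3a1 exceeded Slc7a9 in every library.

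For the basolateral exchangers, the whole-kidney RNA ratios of the light chains to Slc3a2 differed between genotypes in opposite directions. Slc7a7 was not compared with Slc7a8 directly. The ratio of Slc7a7 to Slc3a2 was 1.15 ± 0.197 (SD, n = 12) in WT and 0.898 ± 0.128 in KO, lower in KO at all 6 times, by -0.34 in log2 (exact permutation p = 0.000386, adjusted p = 0.000772). In contrast, the ratio of Slc7a8 to Slc3a2 was 0.654 ± 0.056 in WT and 0.773 ± 0.098 in KO. It was higher at 5 of 6 times, by 0.23 in log2 (exact permutation p = 0.0054, adjusted p = 0.0072). The exception was ZT8, with ratios of 0.662 and 0.672 in WT and 0.516 and 0.755 in KO. These 2 ratios share Slc3a2, and ratios within a library do not depend on its scaling, apart from the pseudocount.

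The ratio of Slc6a19 to Slc6a18, both of which need the accessory protein collectrin in the kidney, was 0.797 ± 0.384 (SD, n = 12) in WT and 0.629 ± 0.232 in KO. The log2 difference of -0.27 was not called (exact permutation p = 0.0917). Without KO ZT0 A the adjusted p was 0.0468, and without KO ZT16 B it was 0.0279. In WT the ratio ran from 0.411 at ZT16 to 1.34 at ZT8.

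**Figure D4:**
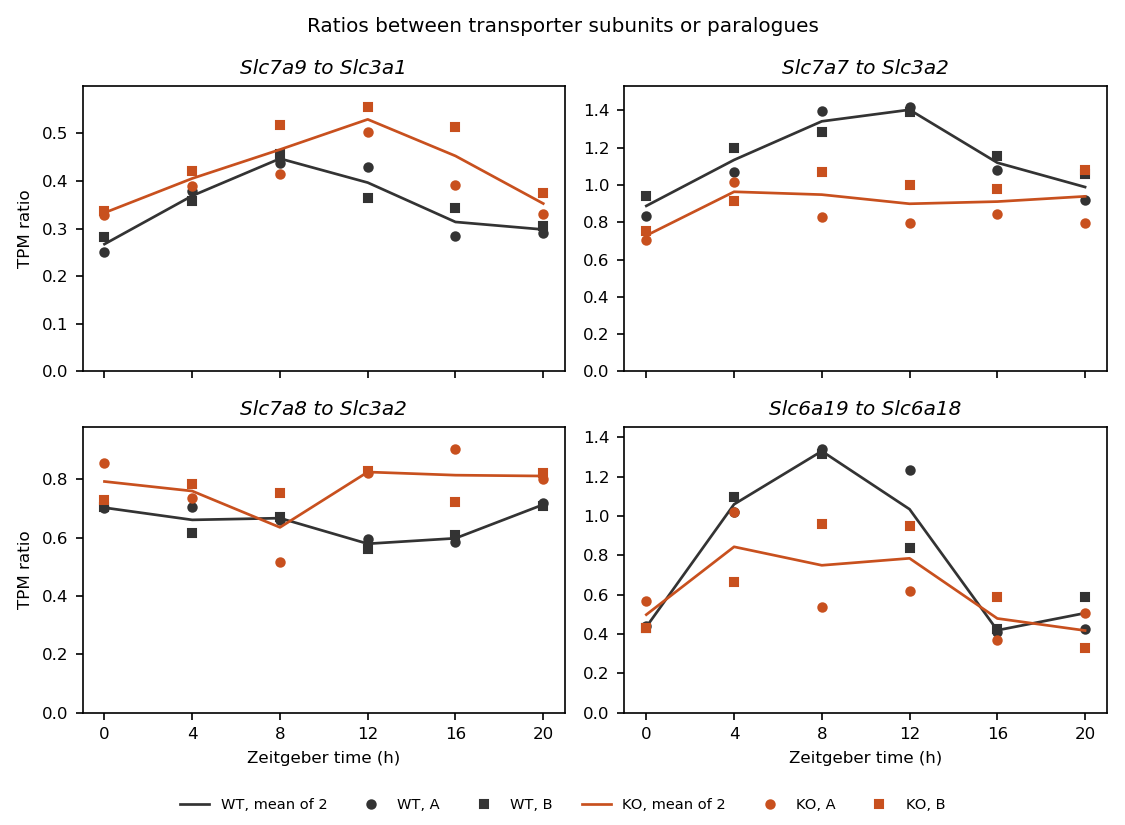
TPM ratio of partner genes (vertical axis, from 0) by zeitgeber time (horizontal axis, h). Points are single libraries and lines join the mean of 2 libraries, with WT in black and KO in orange. Slc7a9 to Slc3a1 lies higher in KO at 6 of 6 times, and Slc7a7 to Slc3a2 lies lower.

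Of 5 genes for accessory proteins and regulators of these carriers, 1 was higher in KO, 3 lower and 1 not called. Over all genes tested, 50.9% were higher and 10% lower. The 5 are part of a longer list, so these counts do not describe accessory genes as a set. Cltrn, which encodes collectrin, measured 992.6 TPM ± 53.1 (SD, n = 12) in WT and 1508 TPM ± 276 in KO, a difference of 0.58 (SE 0.086, adjusted p = 1.54e-05). Its 12 WT libraries ran from 896.3 to 1059 TPM, and all KO libraries but KO ZT4 A (1052 TPM) lay above them.

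The scaffolds of the brush border went the other way. Pdzk1 was lower by -0.19 (SE 0.051, adjusted p = 0.00323), and Slc9a3r1 by -0.28 (SE 0.058, adjusted p = 0.000401). The transcription factor Hnf4a was lower by -0.16 (SE 0.043, adjusted p = 0.00367). The peptidase Anpep was not called (0.077, SE 0.091, adjusted p = 0.477), and was -0.075 after median-of-ratios scaling.

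Of 41 other amino acid and peptide transporters, 29 passed the filter: 16 were higher in KO, 5 lower and 8 not called, with a median difference of 0.25. Over all genes tested 50.9% were higher and 10% lower, so these counts are near the background. After median-of-ratios scaling, 9 were higher and 7 lower, beside 21.5% and 22.6% of all genes. Slc7a1, the cationic carrier CAT1, measured 1.32 TPM ± 0.158 (SD, n = 12) in WT and 2.19 TPM ± 0.369 in KO, a difference of 0.68 (SE 0.089). Slc36a4 was higher by 0.48 (SE 0.066), Slc6a15 lower by -0.58 (SE 0.08), and Slc6a9, the glycine carrier GLYT1, lower by -0.95 (SE 0.136).

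The largest of these differences was that of Slc7a12, at 3.99 (SE 0.55, adjusted p = 1.26e-05), which also stands in the list of female-high genes. Slc7a12 measured 1.35 to 16.4 TPM in WT, 2.35 TPM in KO ZT4 A and 65.1 to 115.3 TPM in the other KO libraries. Slc7a13, whose product also pairs with the Slc3a1 heavy chain in the late proximal tubule and which was picked after its values were seen, measured 373.9 TPM ± 51.8 (SD, n = 12) in WT and 137.2 TPM ± 83.5 in KO. That difference was -2.02 (SE 0.533, adjusted p = 0.00353). The KO values ran from 1.85 TPM in KO ZT12 A to 294.0 TPM in KO ZT4 A. Between genotypes, Slc7a13 thus moved against Slc7a9, while their shared heavy chain was not called.

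In WT, 3 of the 29 were rhythmic: Slc6a20a (0.94, SE 0.139, peak at 12.0 h, adjusted p = 0.000464), Slc16a10 (0.66, SE 0.148, peak at 23.6 h, adjusted p = 0.0142) and Slc6a13 (0.37, SE 0.09, peak at 23.6 h, adjusted p = 0.0215). Slc16a10 encodes TAT1, a basolateral exit path for aromatic amino acids, and its peak fell near those of Slc3a2 and Slc7a8. In KO, 1 of 29 was rhythmic, Slc6a13 (0.38, adjusted p = 0.0448), and a difference in rhythm was called for none. Over all genes the shares were 13.7% in WT, 3.64% in KO and 0.629% for the difference, so the WT and KO counts are near the background. The KO call of Slc6a13 was lost on leaving out any of 19 of the 24 libraries (adjusted p up to 0.122, without KO ZT0 B) and under 7 of 13 other alternatives. Its WT call was lost on leaving out any of 3 libraries (WT ZT0 A, WT ZT0 B or WT ZT12 B, adjusted p up to 0.0781) and under 4 of 13 alternatives, median-of-ratios scaling among them (0.0669). The WT call of Slc16a10 was lost without WT ZT12 B (0.0587) and with time as a 6-level factor (0.128).

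**Figure D5:**
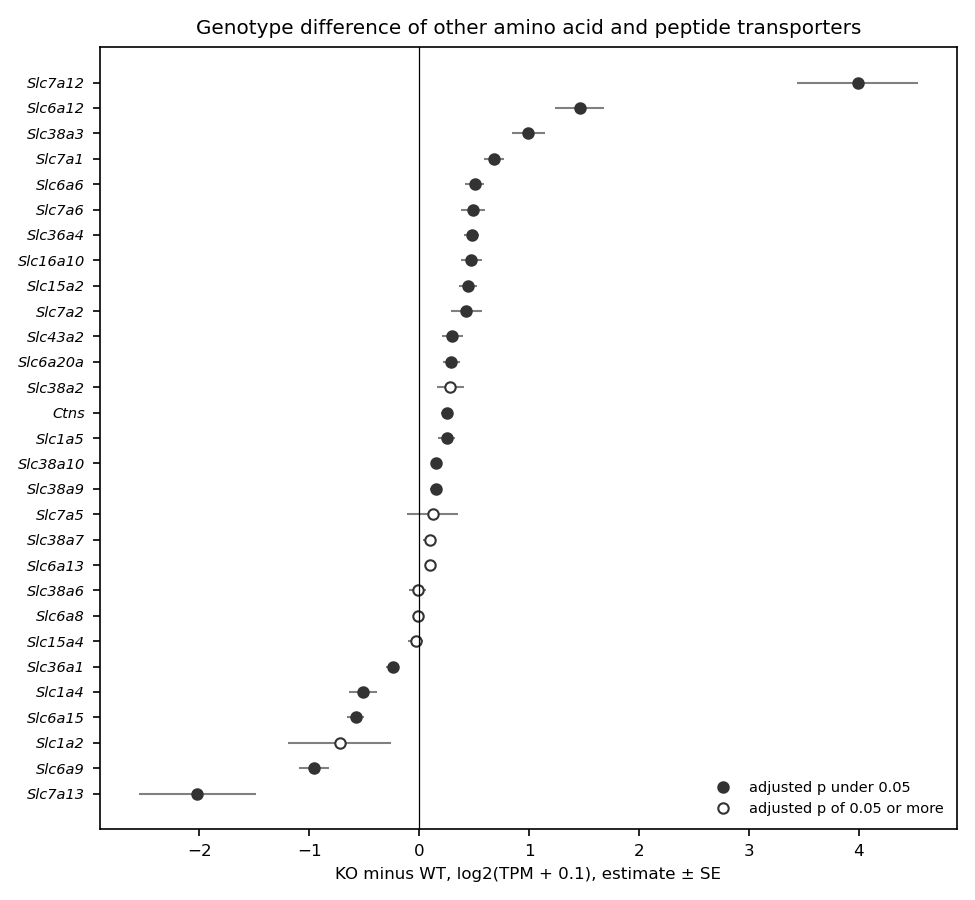
KO minus WT difference in log2(TPM + 0.1) (horizontal axis) for the 29 other amino acid and peptide transporters tested, with SE bars. Filled points were called (16 higher, 5 lower) and open points were not. Slc7a12 and Slc7a13 lie farthest from 0, in opposite directions.

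Markers of the tubule segments also moved with genotype. Of 10 proximal tubule markers 4 were higher in KO, 3 lower and 3 not called, and their summed level ran from 4276 to 5073 TPM in WT and from 4030 to 5173 TPM in KO, so the cell type of the label was present in every library. Of 4 late proximal tubule markers 1 was higher and 3 were lower, with sums of 1109 to 1846 TPM in WT and 195.2 to 1607 TPM in KO, the highest being KO ZT4 A. Markers of thick ascending limb (3 of 4 higher), distal convoluted tubule (4 of 4), principal cells (4 of 4), intercalated cells (5 of 5) and podocytes (4 of 4) were mostly higher in KO. So were those of blood (3 of 4) as deposited, but after median-of-ratios scaling 0 of the 4 were higher and 1 was lower. Markers of endothelium (1 of 4 higher), stroma (0 of 3), immune cells (0 of 2 tested) and liver (1 of 3 tested) were mostly not higher. Over all genes tested, 50.9% were higher in KO and 10% lower. After median-of-ratios scaling these shares were 21.5% and 22.6%. Proximal tubule markers were then 2 higher and 4 lower, and endothelium markers 1 higher and 2 lower. Distal convoluted tubule had 3 of 4 higher. The number higher did not change for thick ascending limb, principal cells, intercalated cells and podocytes. Slc3a2 and Slc7a8 are also expressed outside the proximal tubule, and the part of these markers in their difference was not tested. None of the markers found was at 0 in all libraries.

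The genes whose pattern over the 12 group means was most like each of the 9 were named by Pearson r, as a description. Slc7a8 lay closest to Kmt5a (r = 0.99) and Car2 (r = 0.98), and Slc3a2 to Car2 (r = 0.99) and Fem1c (r = 0.98). Slc6a18 lay closest to Wls and L3hypdh (both r = 0.98). Slc6a19 lay closest to Fnip1 (r = 0.97) and to Slc2a2, the glucose carrier GLUT2 (r = 0.96), which had a WT swing of 0.69 with a peak at 7.12 h. Slc7a9 lay closest to Ric8a and Inpp5k (both r = 0.97), Slc7a7 to Dynlt1c (r = 0.98) and Zc3h14 (r = 0.97), and Slc6a20b to the cation exporter Slc47a1 (r = 0.92) and Mgam (r = 0.90). For Slc3a1 the nearest were Surf2 (r = 0.92) and Agmo (r = 0.91), and for Slc1a1 Ccdc181 (r = 0.91) and Zmym3 (r = 0.89). Under median-of-ratios scaling the values for Slc3a1 fell to 0.77 and 0.69. That of Slc1a1 with Zmym3 fell to 0.79, and that of Slc7a7 with Zc3h14 to 0.84. The values for Slc6a20b rose to 0.97 and 0.96, and all the others were 0.89 or more.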

How the data were processed

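TPM per transcript, as deposited by the authors, were used for the 24 kidney RNA libraries. Each column summed to between 999999 and 1000001. kallisto 0.42.4 and the builds mm10 and GRCm38 are named per the submitters' processing notes. The 4C-seq tables of the series were not used here, and no other sample column was left out (0). Of 88198 transcripts, 86119 were matched to genes of GENCODE M21 (GRCm38) by identifier without version and summed; the other 2079 held 1.35% to 2.24% of TPM and were left out. Groups came from the labels.

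Genes averaging 1 TPM or more were tested as log2(TPM + 0.1), which understates the change of low genes, with limma 3.58.1 (trend and robust options) in R 4.3.3 and Benjamini-Hochberg adjustment at 0.05. The genotype difference had time as a 6-level factor, rhythm was a moderated F test of a 24-hour cosine and sine per genotype, and single times used 12 group means. The scripts were tested on simulated data. Named genes were the 9 transporters, 5 accessory genes (others of that list are not reported here), up to 5 of the other transporters with the smallest p per test, and the 2 genes most like each of the 9. The members and lists were chosen with earlier results of these data known. Promoter sequences are from RefSeq (GRCm38).

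Alternatives covered the pseudocount, the filter, the scaling, the replicate letter as a block, the model, and each library left out. Leaving out KO ZT4 A and KO ZT12 A together, coding transcripts alone, and the letter as a block within each genotype were chosen after seeing the data.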

Additional observations from a re-analysis of the deposited data

Results flagged for a closer look

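Slc9a3r1 encodes the brush border scaffold NHERF1. Among the 9 transporters, 7 accessory genes and 29 other transporters tested, only its rhythm differed between genotypes (limma, adjusted p = 0.0152). A difference in rhythm was called for 0.629% of all genes tested (81 of 12874). The KO minus WT curve of Slc9a3r1 had a swing of 0.61 (SE 0.103). In WT its level peaked at 14.2 h with a swing of 0.28 (adjusted p = 0.0349), with 126.1 and 127.0 TPM at ZT4 and 166.2 and 157.8 TPM at ZT16. In KO it peaked at 1.65 h with a swing of 0.33 (adjusted p = 0.0329), with 127.7 and 136.9 TPM at ZT4 and 93.4 and 107.3 TPM at ZT12. With time as a 6-level factor the adjusted p of the difference was 0.0881. Among the other alternatives and libraries left out, each kept the call of the difference. The separate rhythm calls were less stable. That in KO was lost on leaving out any of 5 libraries (adjusted p up to 0.0746, without KO ZT4 B) and under 5 of 13 other alternatives (0.0617 after median-of-ratios scaling). That in WT was lost on leaving out any of 6 libraries (up to 0.108, without WT ZT16 A) and under 2 of 13 alternatives.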

How the results depend on the processing

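Of the 9 transporters, 6 differed between genotypes, and leaving out each library in turn gave 5 to 6. The 4 rhythmic in WT became 2 after rescaling without mitochondrial genes and 1 with time as a 6-level factor, and 2 to 5 with a library left out (2 without WT ZT0 A or WT ZT12 B). The 2 rhythmic in KO became 1 with no filter, median-of-ratios scaling, rescaling without mitochondrial genes, eBayes without trend and robust options, both doubted KO libraries left out or coding transcripts alone. That count was 0 with each genotype fitted alone or time as a 6-level factor, and 1 to 2 with a library left out. Calls at single times, 9 in all, ranged from 7 to 13 with a library left out and were 14 without both KO libraries. Over all genes, calls at single times also rose without both KO libraries. The 3 called partner ratios became 3 to 4. Median-of-ratios scaling turned the direction of Slc3a1 (-0.10), Slc6a19 (-0.023), Slc1a1 (-0.11), Anpep (-0.075) and Slc6a13 (-0.056), and rescaling without mitochondrial genes that of Slc3a1 (-0.016) and Slc1a1 (-0.025). Over all genes, calls of KO rhythm (468) were 12 with KO fitted alone, 28 with the 6-level factor, 295 with no filter, 272 without KO ZT0 B and 297 without KO ZT8 B. WT calls (1761) were 2843 and 576 under the first 2 of these. Calls of a difference in rhythm (81) were 43 with no filter and 23 with the 6-level factor, and 37 to 53 on leaving out any of 6 libraries (lowest without WT ZT4 B). The causes were not tested. With 2 libraries per group and no depth in TPM, small changes could not be resolved.

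The labels do not say what letters A and B share. Between WT and KO at the same time the correlation of A minus B ran from -0.089 to 0.15, so the letters were not taken as pairs across genotypes. Within WT it was above 0 for all 15 pairs of times (0.034 to 0.34, median 0.20), and B held more genes at 1 TPM or more than A at 6 of 6 times. Within KO it ran from -0.20 to 0.22 (median 0.021), and B was higher for Slc7a9 and Slc6a20b at 6 of 6 times. With the replicate block 6 transporters differed between genotypes, 4 and 2 were rhythmic in WT and KO, and 11 calls were made at single times, and no genotype or rhythm call of the 9 changed; Slc6a13 became higher in KO (adjusted p = 0.0451). With the replicate block within each genotype, chosen after seeing the data, these counts were 6, 4, 1 and 13. The KO rhythm of Slc6a19 was then lost (adjusted p = 0.0604). For all genes tested, the same counts without a block were 7844, 1761, 468 and 11767, the last summed over the 6 times. They were 7873, 1842, 525 and 12002 with the replicate block. With the block within each genotype they were 7900, 1791, 508 and 11778.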
